A study of Mus musculus with 4 samples.

Results

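The interleukin-1 family and the inflammasome were followed through the single-cell libraries by 10 genes, taken by symbol from the gene table of 27998 genes. They are the cytokines Il1a, Il1b and Il18, the antagonist Il1rn, the decoys Il1r2 and Il18bp, the receptor subunit Il1rap, and the inflammasome genes Nlrp3, Pycard and Casp1. All 10 were found, and raw counts of unique molecular identifiers (UMIs, each the tag of a captured transcript) were read for them in all 4 libraries. The rule, a match of symbols, used no measured value, but the 10 genes were chosen with earlier results of these data known. The libraries were droplet RNA libraries of liver leukocytes sorted as CD45+ and CD146- from C57BL/6J mice. 2 libraries came from mice on the control diet and 2 from mice on the diet labelled nash-amln, the Amylin diet model of nonalcoholic steatohepatitis (NASH), a fatty liver disease with inflammation and scarring. All groups shared the strain, the sort and a digestion with flavopiridol, an inhibitor of transcription. The labels used here give no age, no length of feeding and no link between a library and single or pooled mice, so p-values measure the spread between libraries, which may be technical.

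Interleukin-1 alpha and interleukin-1 beta act through the same receptor, which needs the accessory protein encoded by Il1rap to signal. Interleukin-1 receptor antagonist, encoded by Il1rn, occupies that receptor without signaling, Il1r2 encodes a decoy receptor, and Il18bp encodes a secreted protein that binds interleukin-18. Pro-interleukin-1 beta and pro-interleukin-18 are cut to their active forms by caspase-1, which is activated in the inflammasome when a sensor such as NLRP3 recruits the adaptor ASC, the product of Pycard. Transcript counts therefore describe the supply of precursors, adaptors and antagonists and not the active cytokines. In the liver, Kupffer cells, the resident macrophages, are among the known sources of these transcripts.

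The kept cells numbered 1307 and 1420 in control libraries 1 and 2, against 1572 and 1859 in NASH libraries 1 and 2, 6158 in all. Cells were grouped without the 10 genes and without 52 other genes of the pathway, and 968, 870, 727 and 1008 cells fell into macrophage-like clusters. Their median depth was 3113 and 2844 UMIs in the control libraries against 8234 and 7524 in the NASH libraries, so levels are given as CPM, the UMIs of a gene over all UMIs summed in a class on the usual common scale. Before any result, the libraries stood apart in cluster makeup. A cluster led by Fkbp5, Abhd11os and Fosb held 84.8% of the macrophage-like cells of control library 1 and 9.89% of those of control library 2. The cluster led by Marco, Cxcl13 and Hmox1 held 10.3% and 82.4%. The macrophage-like cells of the NASH libraries lay mainly in clusters led by Folr2 (22.8% and 33.8%), by Mmp12 (35.4% and 26.1%), by Cx3cr1 (20.4% and 27.8%) and by Gpnmb (19.7% and 11.9%). The cells compared between the diets thus came from different clusters of the same class, apart from the Folr2 cluster, which also held 37 and 33 control cells, and the Cx3cr1 cluster, which held 9 and 33.

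The first comparison asked which of the 10 genes differed between the diets in macrophages. In macrophage-like cells the precursor gene Il1b and the sensor gene Nlrp3 were lower in NASH, 2.93-fold and 2.52-fold in the means of the scaled levels, while the antagonist gene Il1rn, the adaptor gene Pycard and the protease gene Casp1 were higher, 3.60-fold, 3.13-fold and 2.59-fold. UMIs were summed per library and tested with edgeR's quasi-likelihood test over all 10275 genes that passed its filter on low counts, and genes with a Benjamini-Hochberg adjusted p under 0.05 are called higher or lower. 9 of the 10 genes passed the filter, and of these 5 were called higher and 3 lower. Over all genes tested 43.4% were called, 22.8% higher and 20.6% lower, so calls were frequent in this comparison. The median log2 fold change of the 9 genes was 0.56 against -0.02 over all genes. As the genes were chosen with earlier results known, this comparison is a description and not a test. Levels below are CPM scaled by edgeR's TMM factors where a class was tested, and plain CPM where single clusters are described. Without TMM factors the median over all genes shifted to -0.40 and the calls split into 1278 higher and 3965 lower, against 2342 and 2121 with them. On that scale Il1rn, Casp1 and Pycard stayed called higher and Il1b, Nlrp3 and Il1rap lower, while Il18 and Il18bp were not called.

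**Figure D1:**
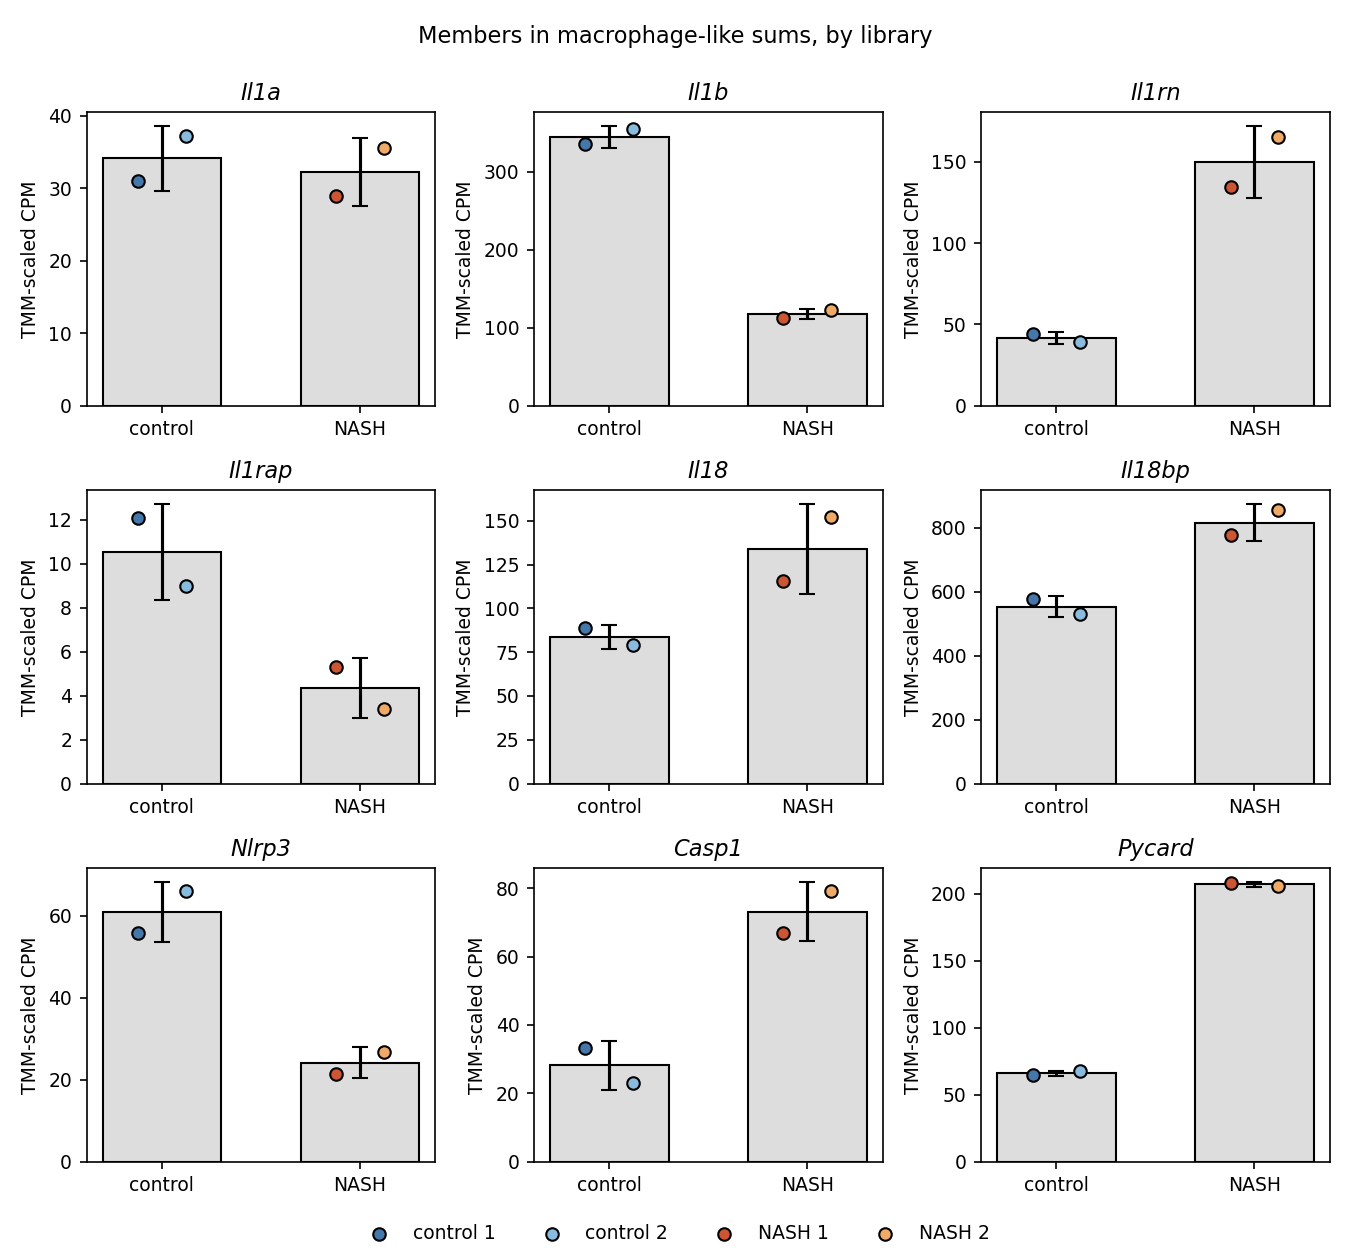
TMM-scaled CPM of 9 genes in macrophage-like sums (vertical axes) by diet; points are libraries, bars the mean and whiskers the SD of 2 libraries. For Il1b the control libraries lie at 335 and 354 and the NASH libraries at 113 and 122, for Il1rn at 44.1 and 39.1 against 134 and 165, and for Il1a the libraries of both diets overlap.

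Il1b, the gene of the interleukin-1 beta precursor, gave 1278 and 1105 UMIs in the macrophage-like cells of the control libraries and 617 and 866 in the deeper NASH libraries. The scaled levels were 335 and 354 CPM in control and 113 and 122 CPM in the NASH libraries. The groups did not overlap, and the libraries of each diet lay close together (344.8 ± 13.6 CPM against 118 ± 6.74, SD, n = 2 each). The log2 fold change was -1.55 (SE 0.137, edgeR, Benjamini-Hochberg adjusted p = 2.92e-05). Macrophage-like cells held 93.6% and 92.6% of all Il1b UMIs of the control libraries and 62.3% and 68.4% in NASH. Il1bos, an antisense gene that overlaps Il1b, had 3, 0, 3 and 0 UMIs in the 4 libraries. Il1a, the gene of the second ligand, did not follow this pattern. Its scaled levels were 30.9 and 37.2 CPM in control and 28.9 and 35.5 CPM in the NASH libraries, which overlap. Its log2 fold change of -0.07 had an SE of 0.178 (edgeR, Benjamini-Hochberg adjusted p = 0.771), and its sign turned to 0.06 without control library 2 and to 0.07 without NASH library 1.

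Il1rn, the gene of the receptor antagonist, gave 168 and 122 UMIs in the macrophage-like cells of the control libraries and 734 and 1170 in NASH. The scaled levels were 44.1 and 39.1 CPM against 134 and 165 CPM, without overlap. The log2 fold change was 1.85 (SE 0.158, edgeR, Benjamini-Hochberg adjusted p = 2.40e-05). Set against Il1b within each library, there were 0.131 and 0.110 Il1rn UMIs per Il1b UMI in control and 1.19 and 1.35 in NASH. The ratio needs no scaling between libraries, but capture may differ between the genes, so it is read only between libraries and not as a ratio of molecules. An exact two-sided permutation test of 2 against 2 libraries gave p = 0.333, the smallest it can give.

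The other modulators of the pathway moved less or were sparse. Il18bp, which encodes the interleukin-18 binding protein, was at 576 and 530 CPM in the macrophage-like sums of control and at 777 and 857 CPM in NASH, without overlap. Its log2 fold change was 0.56 (SE 0.141, edgeR, Benjamini-Hochberg adjusted p = 0.00838). Il18, the gene of the cytokine it binds, was at 88.6 and 78.9 CPM against 116 and 152 CPM, again without overlap. Its log2 fold change was 0.68 (SE 0.161, edgeR, Benjamini-Hochberg adjusted p = 0.00635). Both calls were lost without NASH library 2, where edgeR's Benjamini-Hochberg adjusted p became 0.104 for Il18 and 0.109 for Il18bp. They were also lost under a stricter cell filter (500 genes or more, mitochondrial share of 5% or less) (0.651 and 0.0505). Over 15 alternatives the adjusted p of Il18 ran from 1.76e-05 to 0.651 and that of Il18bp from 0.000475 to 0.298. Il18 overlaps Bco2 and Tex12 and Il18bp overlaps Numa1, each with fewer UMIs than the member in each library. Whether the counting used strand is not given in the sources used here.

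Il1rap, the gene of the accessory subunit, was near the limit of detection. It had 46 and 28 UMIs in the macrophage-like cells of the control libraries and 29 and 24 in NASH, which gave 12.1 and 8.98 CPM against 5.31 and 3.39 CPM. The log2 fold change was -1.31 (SE 0.326, edgeR, Benjamini-Hochberg adjusted p = 0.00813). It was not called with DESeq2 (Benjamini-Hochberg adjusted p = 0.0711) or with edgeR without NASH library 2 (0.0891), the highest of 14 alternatives, whose lowest was 0.000703. Il1r2, the gene of the decoy receptor, had 6, 0, 3 and 5 UMIs in the macrophage-like cells of the 4 libraries and was the gene that did not pass the filter.

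The inflammasome genes did not move together. Nlrp3, the sensor gene, had 213 and 206 UMIs in the macrophage-like cells of the control libraries and 117 and 190 in NASH, or 55.9 and 66.1 CPM against 21.4 and 26.9 CPM after scaling. The groups did not overlap and the log2 fold change was -1.33 (SE 0.175, edgeR, Benjamini-Hochberg adjusted p = 0.000236). Pycard, the gene of the adaptor ASC that links sensor and protease, lay at 64.8 and 67.4 CPM in control and at 208 and 206 CPM in NASH. With replicate libraries this close its log2 fold change of 1.65 had an SE of 0.135 (edgeR, Benjamini-Hochberg adjusted p = 2.12e-05). Casp1, the gene of the protease, lay at 33.3 and 23.1 CPM against 67.0 and 79.2 CPM. Its log2 fold change was 1.36 (SE 0.1901, edgeR, Benjamini-Hochberg adjusted p = 0.000337). Il1b, Il1rn, Nlrp3, Pycard and Casp1 were called in the same direction in each of 15 alternatives, with log2 fold changes from -1.93 to -1.49 for Il1b, 1.47 to 2.09 for Il1rn, -1.70 to -1.16 for Nlrp3, 1.27 to 1.73 for Pycard and 0.99 to 1.66 for Casp1.

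Other features of the macrophage-like sums moved with the diet as well, in plain CPM. The 15 macrophage genes summed to 55249 and 53640 CPM in control and 89878 and 95571 CPM in NASH. Of these 6 were higher and 8 lower in both NASH libraries. Of 10 Kupffer genes 7 were lower and 1 higher, at 19279 and 23662 CPM against 10167 and 11847 CPM. All 10 lipid-associated macrophage genes were higher, at 1458 and 1825 CPM against 7796 and 7017 CPM. The 8 erythroid or platelet genes were at 99.3 and 4484 CPM in control and 78.9 and 77.1 CPM in NASH. All 22 genes of a hepatocyte list were lower in both NASH libraries, with summed levels of 1616 and 1548 CPM in control and 725 and 541 CPM in NASH. Of 18 endothelial genes 15 were lower, with sums of 268 and 315 CPM against 140 and 115 CPM. Of 10 immediate-early genes, which dissociation is known to induce, 8 were lower and 1 was higher, with sums of 3245 and 2147 CPM against 829 and 906 CPM. That list (Fos, Fosb, Jun, Junb, Jund, Egr1, Ier2, Dusp1, Zfp36 and Atf3) was added with the data known. The median mitochondrial share of these cells was 6.32% and 6.23% in control and 3.64% and 3.27% in NASH. The part of these differences, and of depth, in the results on the 10 genes was not tested. Neutrophils and monocytes are further known sources of Il1b. The 15 neutrophil genes summed to 109 and 107 CPM in control and 121 and 103 CPM in NASH, and the 15 monocyte genes to 974.7 and 835 CPM against 639 and 818 CPM. No gene of the hepatocyte, endothelial, neutrophil and monocyte lists was at 0 in all libraries.

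RefSeq windows of 250 bases before to 50 bases after the start site (build GRCm38.p6) were matched for all 10 genes. The windows of 2 genes that were lower in NASH, Il1b and Nlrp3, and of 2 that were higher, Il1rn and Pycard, are shown as examples. Casp1, also higher in NASH, is not shown. They run 5′ to 3′ on the strand of the gene, with capitals for matches to any of 4 motifs searched on both strands. The motifs were the AP-1 element TGANTCA, the C/EBP element TTGCNNAA, the TATA box TATAAA and the NF-kB element by its consensus. Il1b and Il1rn lie on chromosome 2, Nlrp3 on chromosome 11 and Pycard on chromosome 7, and RefSeq lists further start sites for Il1rn and Nlrp3, which end-tagged UMIs do not tell apart.
Il1b (chr2:129371090-129371389, minus strand): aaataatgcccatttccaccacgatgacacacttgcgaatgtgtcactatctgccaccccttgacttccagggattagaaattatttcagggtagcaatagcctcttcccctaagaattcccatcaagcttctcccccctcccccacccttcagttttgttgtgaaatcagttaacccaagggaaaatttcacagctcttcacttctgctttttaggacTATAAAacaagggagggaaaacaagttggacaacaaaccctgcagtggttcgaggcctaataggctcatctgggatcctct
Nlrp3 (chr11:59541319-59541618, plus strand): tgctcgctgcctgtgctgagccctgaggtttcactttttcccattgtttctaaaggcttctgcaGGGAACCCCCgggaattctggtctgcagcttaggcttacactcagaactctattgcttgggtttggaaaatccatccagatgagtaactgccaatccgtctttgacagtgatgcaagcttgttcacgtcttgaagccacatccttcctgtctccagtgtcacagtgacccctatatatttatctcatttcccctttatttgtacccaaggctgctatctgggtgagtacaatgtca
Il1rn (chr2:24336610-24336909, plus strand): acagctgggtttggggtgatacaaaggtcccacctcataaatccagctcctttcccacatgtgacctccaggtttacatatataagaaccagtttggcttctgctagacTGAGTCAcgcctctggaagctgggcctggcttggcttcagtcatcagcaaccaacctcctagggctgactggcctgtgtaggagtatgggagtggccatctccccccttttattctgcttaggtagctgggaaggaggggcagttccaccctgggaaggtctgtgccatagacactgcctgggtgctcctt
Pycard (chr7:127993818-127994117, minus strand): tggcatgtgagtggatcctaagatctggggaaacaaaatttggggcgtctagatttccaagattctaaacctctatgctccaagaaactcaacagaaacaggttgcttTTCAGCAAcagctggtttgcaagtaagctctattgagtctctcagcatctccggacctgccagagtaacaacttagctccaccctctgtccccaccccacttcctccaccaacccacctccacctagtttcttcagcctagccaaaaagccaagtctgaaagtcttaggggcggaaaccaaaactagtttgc

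The 4 windows shown did not share a match, while another RefSeq window of Il1rn held the TATA box, on the opposite strand. Each window shown held a match, but not every window did. Those of Casp1, Il1r2 and Il1rap held none, nor did a further window of Il1rn and of Nlrp3. The Il1b window held the TATA box, which begins at position -31 from the start site. The Nlrp3 window held the NF-kB element from -186, the Il1rn window the AP-1 element from -141, and the Pycard window the C/EBP element from -142 on the opposite strand. Of 32851 mouse windows of this length 13.6% held the TATA box, 8.46% the NF-kB element, 7.81% the AP-1 element and 10.8% the C/EBP element. These matches describe letters in the windows and say nothing of binding.

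Within the macrophages, levels of Il1b, Il1rn, Nlrp3, Pycard, Casp1, Il18 and Il18bp are given by cluster in plain CPM, as a description. The clusters were named by their leading genes. Il1b stood at 390 and 457 CPM in the Fkbp5 cluster of control and at 386 and 420 CPM in their Marco cluster. In NASH it was at 99.7 and 113 CPM in the Mmp12 cluster, at 145 and 113 CPM in the Cx3cr1 cluster and at 37.8 and 45.9 CPM in the Gpnmb cluster. The Folr2 cluster, with cells of all libraries, had Il1b at 270 and 212 CPM in control and at 116 and 122 CPM in NASH. Its 95% exact Poisson intervals, which cover counting error only, were 180 to 391 and 119 to 349 CPM against 99.7 to 135 and 110 to 136 CPM. Control cells of this cluster had median depths of 1833 and 1593 UMIs, and NASH cells 8764.5 and 7961. Their median mitochondrial shares were 3.29% and 0.433% in control and 3.92% and 3.37% in NASH. All macrophage-like cells of control had 6.32% and 6.23%, so these control cells also stood apart from most others of their diet. Whether they match the NASH cells of the cluster in state was not tested. In the Cx3cr1 cluster control library 1 gave 1 Il1b UMI in its 9 cells and control library 2 gave 190 CPM, with an interval of 125 to 277 CPM that overlaps those of NASH (124 to 168 and 99.3 to 129 CPM).

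Il1rn was high in different clusters. In the Mmp12 cluster of the NASH libraries it stood at 235 CPM (95% exact Poisson interval 215 to 257) and 345 CPM (320 to 372). In the Gpnmb cluster it stood at 85.2 and 201 CPM, and in the Folr2 and Cx3cr1 clusters at 35.0 to 68.4 CPM. In control cells it was at 46.2 and 31.1 CPM in the Fkbp5 cluster and at 104 and 47.7 CPM in the Marco cluster. The Mmp12 and Gpnmb clusters thus lay above the Folr2 and Cx3cr1 clusters in both NASH libraries, but differed between those libraries by more than their counting intervals. The ratio of Il1rn to Il1b UMIs followed, at 2.36 and 3.04 in the Mmp12 cluster and at 2.25 and 4.38 in the Gpnmb cluster. It was 0.301 and 0.559 in the Folr2 cluster and 0.246 and 0.314 in the Cx3cr1 cluster.

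**Figure D2:**
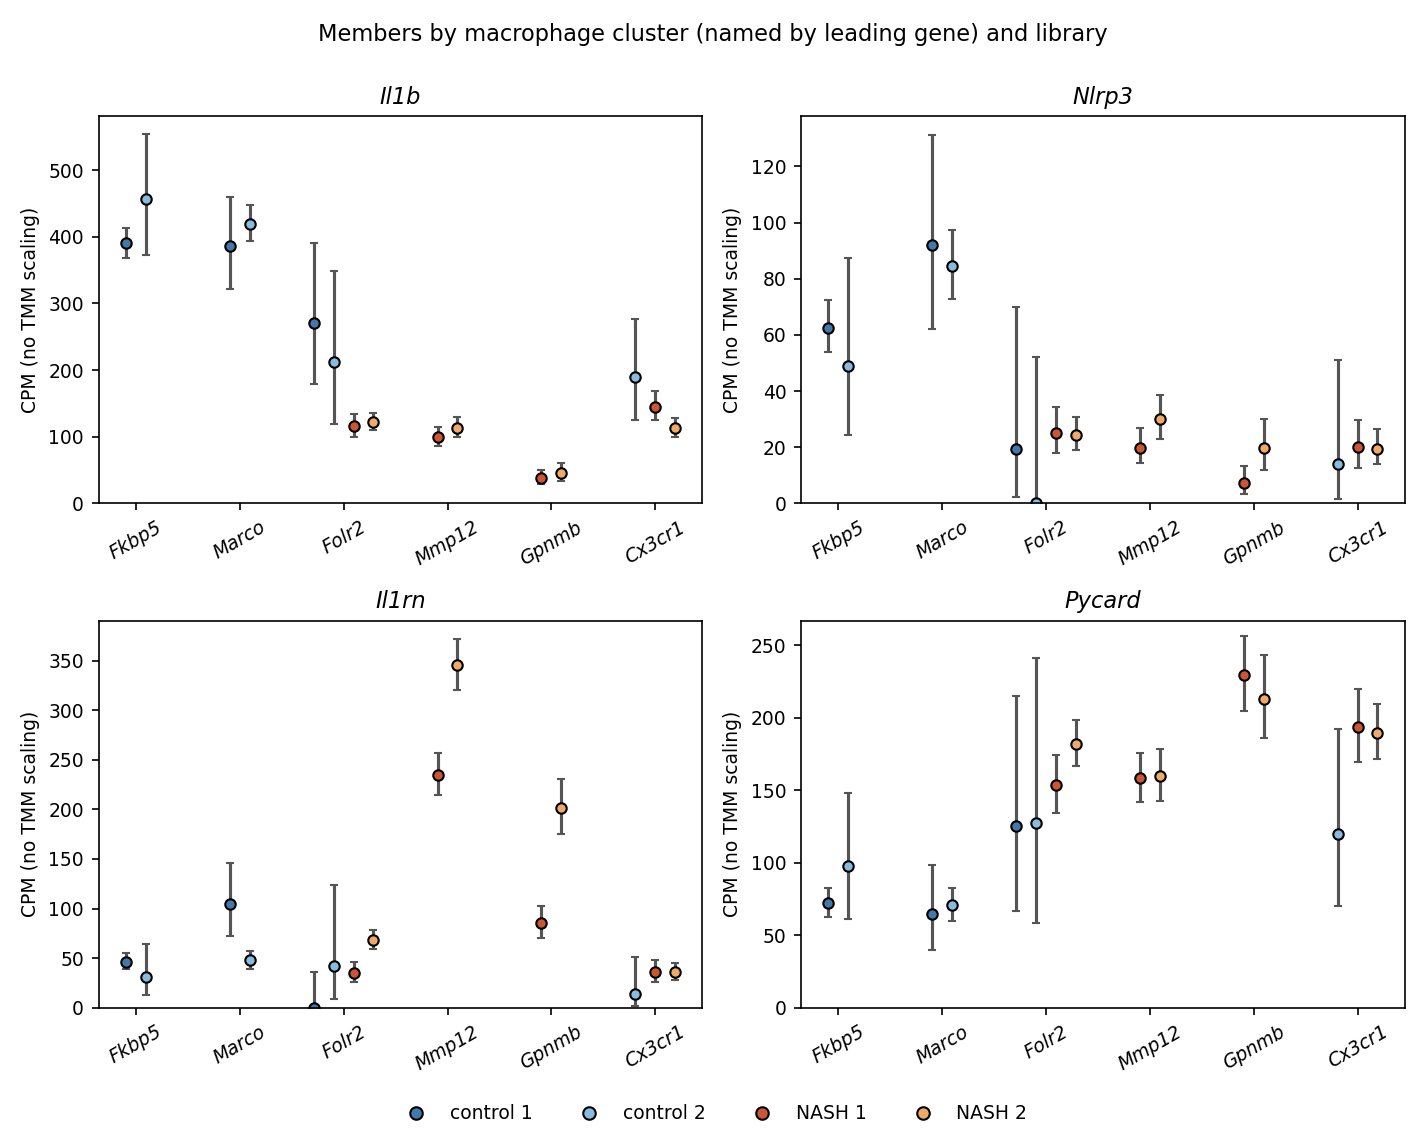
Plain CPM (vertical axes) of 4 genes in 6 macrophage clusters (horizontal axis, named by leading gene), 1 point per library with at least 20 cells in the cluster; whiskers are 95% exact Poisson intervals. Il1b is highest in the Fkbp5 and Marco clusters of the control libraries (386 to 457 CPM), Il1rn in the Mmp12 cluster of the NASH libraries (235 and 345 CPM).

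Nlrp3 stood at 62.5 and 48.8 CPM in the Fkbp5 cluster and at 92.0 and 84.4 CPM in the Marco cluster of the control libraries. In NASH it lay between 7.28 and 29.9 CPM in the Folr2, Mmp12, Cx3cr1 and Gpnmb clusters, with every NASH value under every value of the control clusters just named. The few control cells of the Folr2 cluster gave 2 and 0 Nlrp3 UMIs and those of the Cx3cr1 cluster 1 and 2, too few to set against NASH. Pycard was between 64.4 and 97.7 CPM in the Fkbp5 and Marco clusters and between 153 and 229 CPM in the NASH clusters. Casp1 was between 17.8 and 37.9 CPM in the first and between 50.8 and 80.4 CPM in the second. Il18 was highest in the Folr2 cluster, at 156 and 214 CPM in NASH, and lower in the Gpnmb cluster, at 37.8 and 62.5 CPM. Il18bp likewise ran from 997 and 1035 CPM in the Folr2 cluster to 392 and 430 CPM in the Gpnmb cluster.

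A narrower comparison kept only clusters with broad detection of Kupffer markers. Kupffer-like stands for the macrophage-like clusters with Clec4f and Vsig4, both markers of Kupffer cells, seen in 80% of cells or more. They held 959, 837, 423 and 606 cells. The Mmp12 cluster, with 5 genes of the lipid-associated macrophage list and none of the Kupffer list among its top 10, gave 257 and 263 of the NASH cells and 1 cell of each control library, so the cells compared still differed between the diets. Of 9 genes tested 5 were called higher and 3 lower, against 38.3% of all genes called, 20.9% higher and 17.4% lower. Il1b was at 342 and 366 CPM in control and at 122 and 136 CPM in NASH after scaling (log2 fold change -1.46, SE 0.146, edgeR, Benjamini-Hochberg adjusted p = 6.81e-05). Pycard was at 64.6 and 65.5 CPM against 179 and 196 CPM (1.52, SE 0.146, adjusted p = 5.91e-05). Nlrp3 was at 56.9 and 69.2 CPM against 25.1 and 30.2 CPM (-1.18, SE 0.183, adjusted p = 0.000618). Il18, Il18bp and Casp1 were also called higher and Il1rap lower. Il18 was not called under the stricter cell filter (edgeR, Benjamini-Hochberg adjusted p = 0.0625) nor Casp1 after thinning to 1000 UMIs (0.0564), each the highest of 15 alternatives, whose lowest were 4.83e-09 and 2.40e-12. Il1rap was not called without control library 1 (edgeR, Benjamini-Hochberg adjusted p = 0.0562) or NASH library 2 (0.128), or with DESeq2, which gave the highest of 14 alternatives (0.135, lowest 0.00175). The Kupffer-like result for Il1rn changed with the genes used to cluster. Its scaled level was 44.8 and 40.7 CPM against 174 and 208 CPM, a log2 fold change of 2.16 (SE 0.161, edgeR, Benjamini-Hochberg adjusted p = 1.32e-05). When the 10 genes and the other pathway genes were left among the genes used to cluster, the clusters were drawn anew. The cluster led by Mmp12 then held 518 cells, with Clec4f in 68% and Vsig4 in 66.8%, and was not Kupffer-like. A cluster of 313 cells led by Cd207, with Clec4f in 94.9%, was Kupffer-like. The log2 fold change of Il1rn then fell to 0.32 (edgeR, Benjamini-Hochberg adjusted p = 0.262). This was the highest adjusted p of 15 alternatives, whose lowest was 1.62e-34. Il1rn could itself help to draw the clusters there, so the fall may be partly built in. It was called in 14 of the 15 alternatives, and no fit leaving out only the Mmp12 cluster was run.

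Cells with UMIs of both Timd4, a marker of long-lived resident Kupffer cells, and Clec4f numbered 680 and 576 in control and 108 and 199 in NASH. In these cells Il1b stood at 377 and 420 CPM in control and at 91.0 and 153 CPM in NASH, in plain CPM. Nlrp3 was at 58.6 and 77.9 CPM against 24.7 and 26.7 CPM, and Pycard at 77.3 and 70.4 CPM against 156 and 164 CPM. Il1rn was at 51.5 and 50.4 CPM against 81.2 and 149 CPM. Il1a was at 34.7 and 42.4 CPM against 25.7 and 51.6 CPM, which overlap. How many of all genes lie apart between the diets in these cells was not computed. In Clec4f+ cells without a Timd4 UMI, Il1b was at 398 and 378 CPM against 94.5 and 105 CPM and Il1rn at 46.0 and 31.0 CPM against 137 and 151 CPM. A UMI of Timd4 is missed more often in the shallower control cells, so both groups are mixed, and these values are a description without a test.

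**Figure D3:**
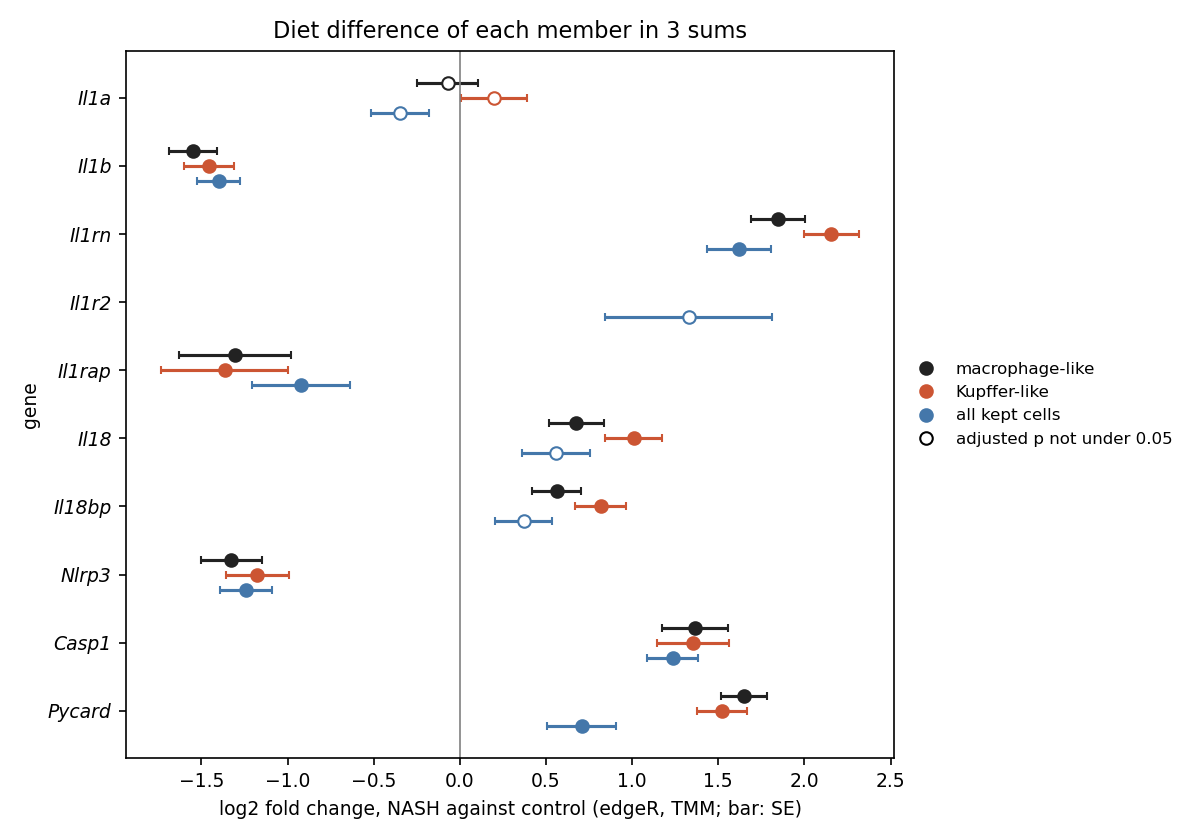
Log2 fold change of NASH against control (horizontal axis, edgeR with TMM factors, whiskers are the SE) for each gene (vertical axis) in macrophage-like cells, Kupffer-like cells and all kept cells; filled points have an adjusted p under 0.05. Il1b and Nlrp3 lie below 0 and Il1rn, Casp1 and Pycard above 0 in all 3 sums, while Il1a is open in each.

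Levels per cell could also be read as shares of cells with a UMI once each cell was thinned to 1000 UMIs, which left out 13 and 9 macrophage-like cells of the control libraries and none of NASH. Il1b was seen in 28.8% and 28.1% of control cells and in 7.15% and 8.23% of NASH cells. Nlrp3 was seen in 6.49% and 6.97% against 1.79% and 2.98%, Il1rn in 5.45% and 3.83% against 9.08% and 10.0%, and Pycard in 5.97% and 7.32% against 15.4% and 16.9%. Without thinning, the deeper NASH cells gave Il1b in 31.8% and 29.3% of cells against 55.6% and 48.2%, and Nlrp3 in 13.5% and 15.1% against 18.7% and 16.3%. B cell-like cells, a class in which Il1b and Nlrp3 are not known as main products, served as a background. In NASH they carried macrophage markers at 48263 and 28153 CPM, against 3959 and 3538 CPM in control. This background is thus not free of macrophage RNA, and the part of that RNA in the shares was not tested. There Il1b was seen in 0%, 5.36%, 2.13% and 0% of thinned cells and Nlrp3 in none of 39, 56, 47 and 91 cells, where a count of 0 allows up to 7.69%, 5.36%, 6.38% and 3.30%. In NASH library 1 the B cell-like interval for Il1b (0.0539% to 11.3%) covers the macrophage-like share, so these few cells do not set a background below it there. For Nlrp3 the B cell-like counts were likewise too few. Pycard was seen in 5.13%, 16.1%, 19.1% and 10.99% of thinned B cell-like cells, so its macrophage-like share did not stand above that class in every library. B cell-like median depths were 3343, 2748.5, 5478 and 5263 UMIs before thinning.

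**Figure D4:**
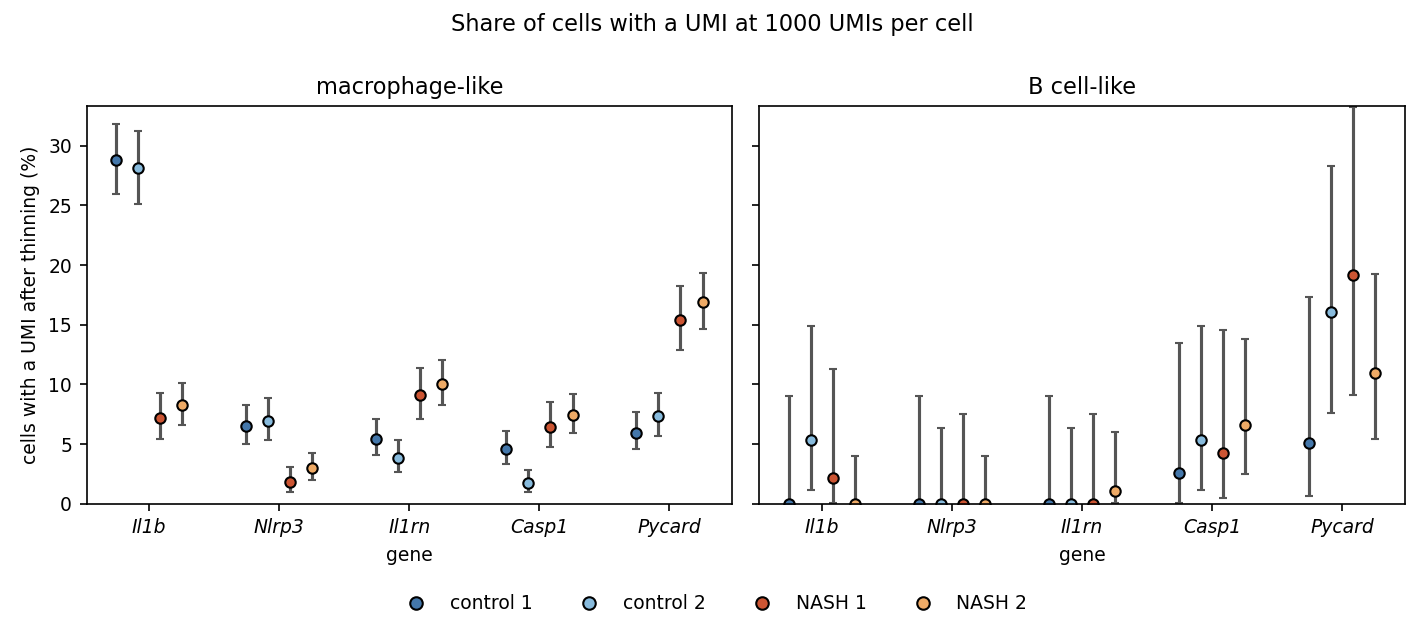
Percent of cells with a UMI (vertical axis) after thinning to 1000 UMIs per cell, for 5 genes in macrophage-like and B cell-like cells; points are libraries and whiskers 95% exact binomial intervals. The Il1b share in macrophage-like cells is 28.8% and 28.1% in the control libraries against 7.15% and 8.23% in NASH, and Pycard is seen in B cell-like cells as well.

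Over all kept cells, the sum that RNA of the whole sort would show, 10 of the 10 genes passed the filter. Casp1, Il1rn and Pycard were called higher and Il1b, Il1rap and Nlrp3 lower, against 34.8% of all genes called, 18.2% higher and 16.6% lower. The call of Pycard was lost in 4 of 13 alternatives, without either NASH library, without TMM factors and under the stricter cell filter. Il1rap was called in only 5 of 13 alternatives, and its call was lost without control library 1 or either NASH library, with DESeq2, the stricter filter, thinning, the replicate block and 3 times the doublets. In this sum fewer cells of a type and less RNA per cell cannot be told apart. Pycard shows the difference from the macrophage sum most, at 114 and 172 CPM in control and 244 and 224 CPM in NASH after scaling (log2 fold change 0.71, SE 0.199, edgeR, Benjamini-Hochberg adjusted p = 0.0380). Macrophage-like cells held 39.1% and 22.0% of its UMIs in control and 39.1% and 47.2% in NASH. Il1r2 had 10, 5, 50 and 37 UMIs in all, and its log2 fold change of 1.33 (SE 0.485) was not called (edgeR, Benjamini-Hochberg adjusted p = 0.0716).

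Across the cell classes the 10 genes had different homes, described in plain CPM. Il1b was not confined to macrophages. Neutrophil-like cells, few in number with 10, 20 and 18 cells in control library 2 and NASH libraries 1 and 2, had it at 502, 259 and 422 CPM, with counting intervals of 229 to 952, 192 to 343 and 310 to 561 CPM. In both NASH libraries the interval lay above the level of macrophage-like cells. Monocyte-like cells of NASH had Il1b at 69.0 and 111 CPM and dendritic cell-like cells at 40.9 and 46.3 CPM, against 97.9 and 108 CPM in macrophage-like cells, so monocyte-like and macrophage-like cells were not ordered the same way in both libraries. In B cell-like, T cell-like and NK cell or ILC1-like cells it stayed at or under 52.6 CPM. Il18bp, a gene high in macrophage-like cells, was at 557, 180 and 359 CPM in those same neutrophil-like sums and at 604, 673 and 757 CPM in macrophage-like cells, and its part in the Il1b values was not tested. Control library 1 held 5 neutrophil-like cells and 1 Il1b UMI in them, and is not read.

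Il1r2 was rare in every class. The Cd209a dendritic cell-like cluster had 16 and 11 UMIs in the NASH libraries, or 24.0 and 27.9 CPM. Neutrophil-like cells had 6 and 7, or 31.8 and 62.8 CPM, and T cell-like cells had 10 and 1, where all 10 came from 1 of 48 cells and are not read as a level of the class. The intervals of the dendritic cell-like and neutrophil-like values overlap, so they are given without an order. Il1rn was at 91.1 and 52.7 CPM in monocyte-like cells and at 58.2 and 108 CPM in neutrophil-like cells of NASH. The least-seen C1q gene had a UMI in 64% of monocyte-like and 66% of neutrophil-like cells, and Clec4f in 34.7% and 49.1%. These classes are thus not free of macrophage RNA, whose part in their levels was not tested.

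Pycard was found in many classes. Plasma cell-like cells, few in number with 12, 15, 7 and 14 cells, had it at 1121, 2106, 976 and 447 CPM in the 4 libraries. They were the highest class in control libraries 1 and 2 and in NASH library 2. The 7 cells of NASH library 1 fall under the minimum set for class sums, so that value is not read as a level of the class. Plasmacytoid dendritic cell-like cells had it at 223, 337, 320 and 379 CPM and monocyte-like cells of NASH at 305 and 275 CPM, both above the macrophage-like level of 180 and 182 CPM in NASH. Casp1 was at 79.7 and 88.9 CPM in monocyte-like cells of NASH and at 63.4 and 96.3 CPM in NK cell or ILC1-like cells, against 58.1 and 69.9 CPM in macrophage-like cells. Il18 had a second home in the Xcr1 dendritic cell-like cluster, at 125 and 119 CPM in control (7 and 18 cells), against 52.7 and 62.0 CPM in NASH. Il18bp was at 604 to 757 CPM in the macrophage-like cells of the libraries and at or under 139 CPM in monocyte-like cells.

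**Figure D5:**
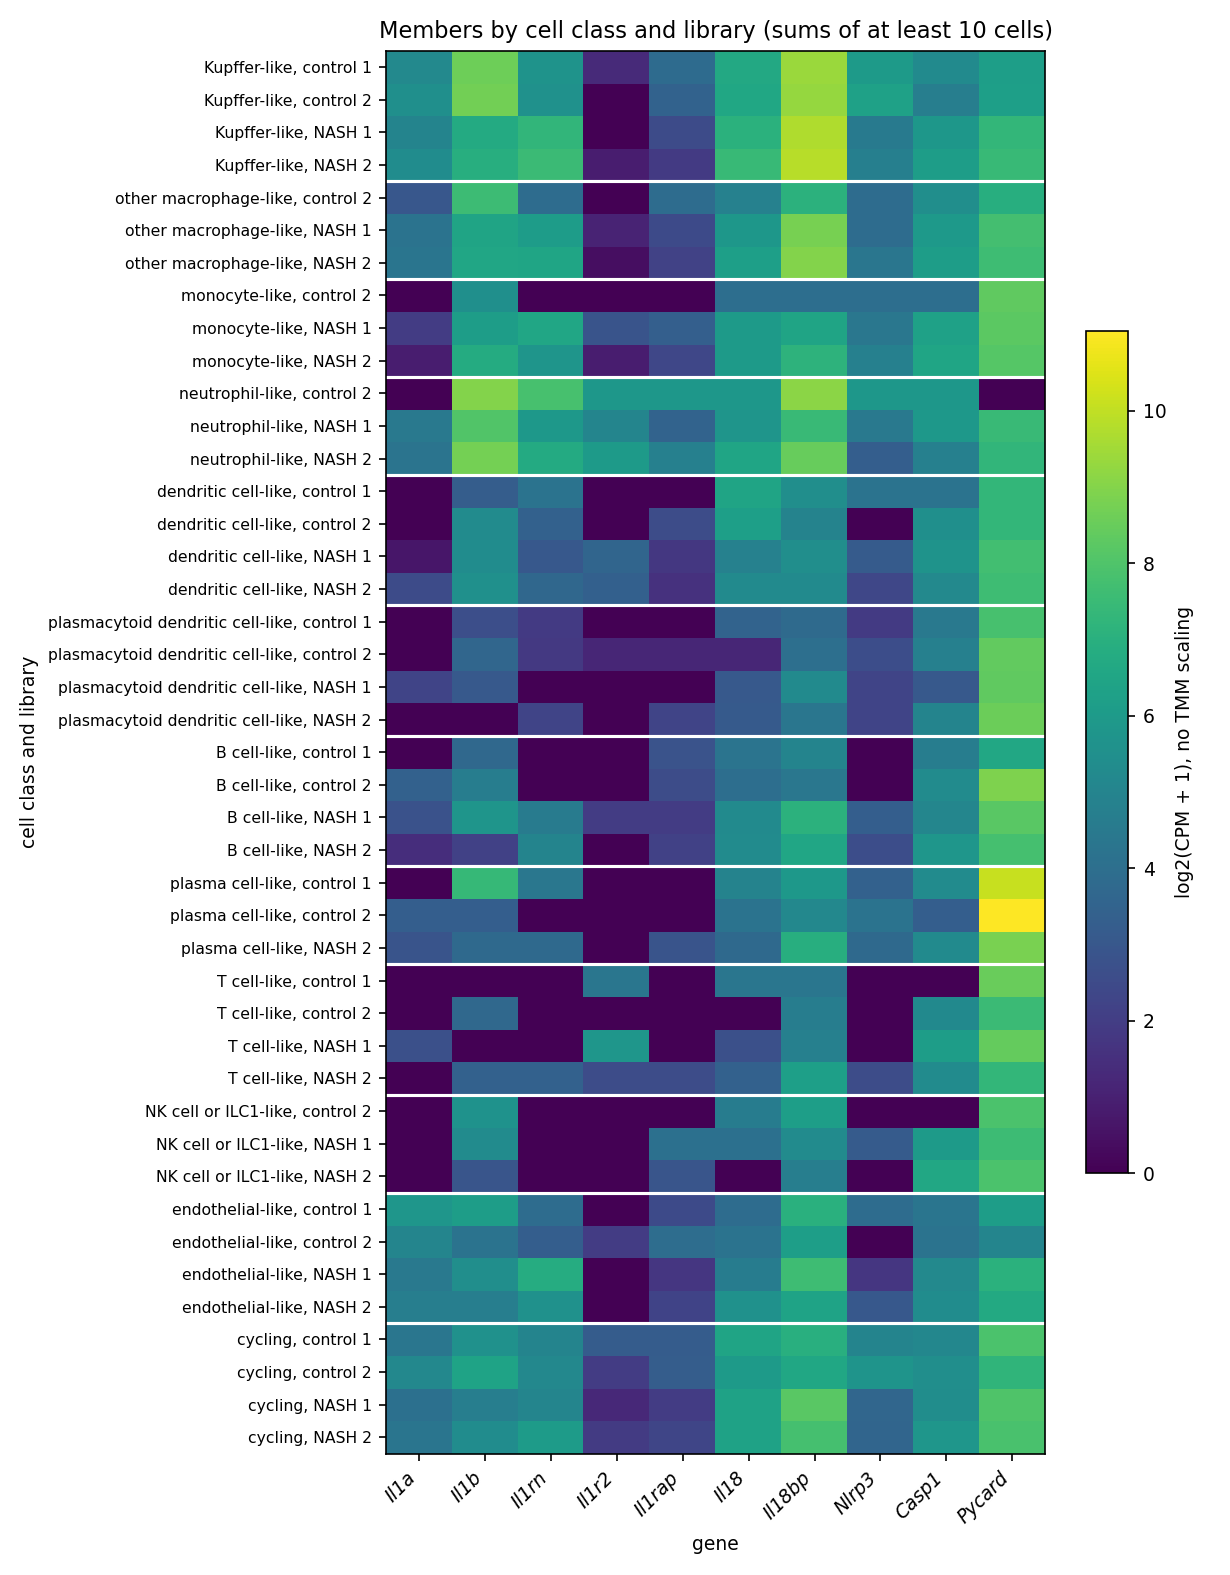
Heat map of log2(CPM + 1) without TMM scaling (color) for the 10 genes (columns) in 12 cell classes split by library (rows, sums of at least 10 cells). Il18bp is brightest in Kupffer-like cells, Pycard in plasma cell-like cells, and Il1b in Kupffer-like cells of the control libraries and in neutrophil-like cells.

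Outside the clusters named macrophage-like fewer of the 10 genes could be tested, from 1 to 8 in a class, so a low number of calls says little. In the 6 other classes tested, B cell-like, T cell-like, dendritic cell-like, plasmacytoid dendritic cell-like, endothelial-like and cycling cells, there were 4 calls. Il18bp in B cell-like cells was at 36.9 and 21.4 CPM in control and at 146 and 94.9 CPM in NASH after scaling (log2 fold change 2.03, SE 0.444, edgeR, Benjamini-Hochberg adjusted p = 0.00131), and it was the only call among 4 genes tested there, against 13.6% of all genes (8.43% higher, 5.18% lower). The 15 macrophage marker genes moved the same way in those cells, with sums of 3959 and 3538 CPM in control and 48263 and 28153 CPM in NASH and 13 of 15 genes higher. Their part in the result was not tested. Il1rn in endothelial-like cells was at 14.9 and 9.10 CPM against 131 and 52.2 CPM (3.03, SE 0.611, adjusted p = 0.0210). It was the only call among 5 genes tested there, against 6.27% of all genes called (2.74% higher, 3.53% lower). That call rests on 3, 3, 48 and 13 UMIs, was lost without NASH library 1 (edgeR, Benjamini-Hochberg adjusted p = 0.477), and stands beside macrophage markers of 12546 and 8905 CPM against 27049 and 22390 CPM, whose part was not tested either.

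Cycling cells came from a C1q-high cluster led by Top2a, 53, 51, 73 and 92 cells, and a smaller cluster led by H2afx. In the Top2a cluster Clec4f was seen in 86.2% and Vsig4 in 74.3% of cells. The calls in cycling cells are therefore not read as calls in cells other than macrophages. Il18bp was at 117 and 91.3 CPM in control and at 325 and 240 CPM in NASH after scaling (log2 fold change 1.43, SE 0.219, edgeR, Benjamini-Hochberg adjusted p = 2.14e-05). Nlrp3 was at 28.6 and 49.8 CPM against 12.7 and 12.2 CPM (-1.64, SE 0.401, adjusted p = 0.00435). These were 2 calls among 8 genes tested, against 18.0% of all genes (9.04% higher, 8.96% lower). Nlrp3 was not called there without control library 2, NASH library 1 or NASH library 2, and Il18bp was not called after thinning. In dendritic cell-like cells, where 2.08% of all genes were called (1.06% higher, 1.02% lower), 0 of 6 genes tested were called by edgeR and 1, Il18, had an unadjusted p under 0.05. DESeq2 called 0 of 10 there, with 1 at an unadjusted p under 0.05. Plasmacytoid dendritic cell-like and T cell-like cells each had Pycard as the only gene tested, and it was not called. Of all genes 2.47% were called in the first (0.284% higher, 2.18% lower) and 0.816% in the second (0.291% higher, 0.524% lower).

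The wider pathway was followed with 52 further genes, ligands, receptors, signaling adaptors, sensors and outputs, of which 35 passed the filter in macrophage-like cells. Of these 3 were called higher, 11 lower and 21 were not called, and their median log2 fold change was -0.44 against -0.02 over all genes. Over all genes 43.4% were called, 22.8% higher and 20.6% lower, so the number called in the list was near that share. Of 12 genes of receptor signaling 4 were lower and none higher. Tab2, which links the receptor complex to the kinase TAK1, was at 169 and 159 CPM in control and at 80.2 and 84.3 CPM in NASH (log2 fold change -0.99, edgeR, Benjamini-Hochberg adjusted p = 0.000248). Map3k7, which encodes TAK1 itself, was at 18.9 and 24.4 CPM against 10.98 and 13.3 CPM, Tollip, an inhibitor of the pathway, at 34.9 and 33.0 CPM against 19.4 and 20.2 CPM, and Peli1, a ubiquitin ligase acting on the IRAK kinases, at 132 and 191 CPM against 97.6 and 105 CPM. Myd88, the central adaptor, was at 40.9 and 52.9 CPM against 31.9 and 45.1 CPM, which overlap, and was not called.

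Of 9 other inflammasome sensors tested in macrophage-like cells 5 were lower and none higher, where 20.6% of all genes were lower and 22.8% higher. Naip1, which with its relatives senses bacterial proteins for the NLRC4 inflammasome, was at 32.8 and 21.5 CPM in control and at 10.4 and 14.3 CPM in NASH (log2 fold change -1.13, edgeR, Benjamini-Hochberg adjusted p = 0.00443). The Naip genes are near-identical copies, so their separate counts are uncertain. Among 13 regulators and outputs 3 were higher and 1 lower, which does not exceed the 43.4% called over all genes. Gsdmd, the gene of the pore protein that caspase-1 opens, was at 42.0 and 40.4 CPM against 53.8 and 61.9 CPM (0.49, edgeR, Benjamini-Hochberg adjusted p = 0.0231). Pydc4, a gene of the pyrin-domain family with close copies and an equally uncertain count, was at 30.2 and 26.0 CPM against 40.1 and 70.6 CPM (0.98, adjusted p = 0.0213). Ninj1, whose product ruptures the membrane of dying cells, was at 413 and 424 CPM against 273 and 284 CPM (-0.59, adjusted p = 0.00486). The counts of this list turn on the scaling and on the class. Without TMM factors 22 genes were lower and none higher in macrophage-like cells. In Kupffer-like cells none of the 8 sensors tested was called. Of the 32 genes of the list tested there 5 were lower and none higher, against 17.4% and 20.9% of all genes. In macrophage-like cells the calls of Gsdmd and Pydc4 were absent in 6 and 5 of 15 alternatives. Among the genes named as lower, Map3k7 was called in 11 of 15, Peli1 and Ninj1 in 13, Tollip and Naip1 in 14, and Tab2 in 15.

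The genes whose plain CPM followed a member most closely over 46 class-by-library sums of 15 classes were picked by their Pearson correlation on the log2 scale, as a description. For Il1b they were Ccl6 (r = 0.85), Csf3r (0.77), Dram2 (0.77), Csf1r (0.76) and Pygl (0.75). For Il1rn they were Lgmn (0.85), Ear2 (0.83), Cd5l (0.83), Aif1 (0.82) and Clec4n (0.82). For Nlrp3 they were Sh3glb1 (0.81), Cd300ld (0.80), Cd44 (0.79), Arhgap19 (0.79) and Ctsa (0.77). The sums share libraries, depth and free RNA.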

How the data were processed

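Droplet libraries of CD45+ CD146- mouse liver cells, 2 per diet, were analysed from the deposited count matrices, raw UMI counts per gene and barcode. The submitters' processing notes name Cell Ranger, Seurat and the build mm10, with no versions or roles. Barcode calling and strand use are not given in these sources.

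Kept cells had 200 genes or more and a mitochondrial share of 10% or less. This filter removed 14.8% and 20.4% of the barcodes of control libraries 1 and 2. In NASH libraries 1 and 2 it removed 2.87% and 2.38%, so the loss was unequal between the diets. The top Scrublet scores were dropped as likely doublets (0.8% per 1000 cells). Libraries shared 2 to 8 barcodes per pair. Scanpy 1.11.5 with 1989 variable genes, 30 components, 15 neighbours and Leiden resolution 1.0 gave clusters. They were named when at least 2 of the top 10 genes were markers of 1 class. C1q-high clusters (each C1q gene in at least 90% of cells) with fewer than 2 markers of another lineage were called macrophage-like. Such clusters with more were left unnamed. Names are rebuilt and may differ from the study's. Counts were summed per library and class (at least 10 cells in each library) and tested with edgeR 4.0.16 (TMM, filterByExpr, robust quasi-likelihood, Benjamini-Hochberg, threshold 0.05) under R 4.3.3, after a check on simulated data. DESeq2 1.42.0, other scalings, filters, clusterings, depths and left-out libraries were the alternatives. Poisson and binomial intervals (95%) and the limit that a count of 0 allows (3 counts of the total) cover counting error only. All 10 genes are named in the text. Of the pathway list, up to 6 called genes a direction with the smallest p and at least 10 CPM are named, and Myd88 was added after its values were seen. The members and lists were chosen with earlier results of these data known. Same-numbered libraries did not deviate together (r = -0.05 in macrophage-like cells), so numbers were not taken as pairs. Gene positions and overlaps come from GENCODE vM21 (27645 of 27998 identifiers matched), and start-site windows from RefSeq.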

Additional observations from a re-analysis of the deposited data

Results flagged for a closer look

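In 2 cases every library of a class moved against the macrophage-like cells, and the difference between the classes was not tested. Il1b in dendritic cell-like cells was at 8.74 and 40.4 CPM in control and at 41.9 and 47.8 CPM in NASH after scaling, a log2 fold change of 0.64 (edgeR, Benjamini-Hochberg adjusted p = 0.664), against -1.55 in macrophage-like cells. The control values rest on 1 and 8 UMIs. Il18 in dendritic cell-like cells was at 87.4 and 75.8 CPM against 28.1 and 38.8 CPM, a log2 fold change of -1.26 (SE 0.374, adjusted p = 0.125), against 0.68 in macrophage-like cells. The dendritic cell-like class held 11 and 30 cells in the control libraries and 187 and 156 in NASH, and its clusters led by Xcr1, Cd209a and Fscn1 took different shares of it in each library.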

How the results depend on the processing

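With 2 libraries per diet, the median depth differing between the diets and clusters that hardly overlap between them, diet cannot be told apart from anything else that differed between these libraries. In macrophage-like cells the number of the 10 genes called ran from 5 to 8 when single libraries were left out, the 5 coming without NASH library 2, and all genes called ran from 2605 to 4308, with 2839 without NASH library 1 and 2605 without NASH library 2, against 4463. The replicate number as a block left the members' counts of 8 in macrophage-like and Kupffer-like cells and 4 in the other classes, and lowered the count over all kept cells from 6 to 5, Il1rap being lost (edgeR, Benjamini-Hochberg adjusted p = 0.0538). Crossing the numbers gave 8, 8, 8 and 5 calls in macrophage-like, Kupffer-like, all kept and other cells. In the other classes 4 calls became 1 with DESeq2, 8 with no filter on low counts, 0 after thinning and 3 to 9 without single libraries, 9 without control library 1. The 0 calls after thinning are edgeR's over 5 tests, 1 of them at an unadjusted p under 0.05, and no other tool was run on the thinned sums. Of the pathway list 14 calls became 6 with DESeq2, 22 without TMM factors, 5 with the stricter cell filter, 9 after thinning and 6 to 11 without single libraries, 6 without either NASH library. All genes called became 2768 with DESeq2, 2535 with the stricter filter and 2560 after thinning. Il1a, never called in macrophage-like or Kupffer-like cells, had log2 fold changes from -0.22 to 0.070 in macrophage-like cells without single libraries, positive without control library 2 (0.062) and NASH library 1 (0.070), and turned negative in Kupffer-like cells without TMM factors (-0.17), with the stricter filter (-0.036) and after thinning (-0.079). The difference in shares of cells with a UMI, NASH minus control, was -20.8 percentage points for Il1b at 1000 UMIs, -13.7 at 500 and -27.1 at 2000. It was 4.91, 2.73 and 6.65 for Il1rn and -4.35, -2.07 and -8.41 for Nlrp3, the size following the depth and the direction unchanged in these 6 alternatives. Classes that fell under 10 cells in a library under an alternative gave no value there. Apart from the thinning depth, where the share itself is defined by it, the cause of these changes was not tested.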
